A study of Mus musculus with 2 samples.

Results

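The cells described here are macrophages of mouse pancreatic tumours that held relatively more Cd163, Folr2 and Cbr2 transcript than the other myeloid cells of the same tumours. The tumours were allografts of pancreatic ductal adenocarcinoma in mice of the genotype p16-CreERT2/R26-LSL-tdTomato, in which Cre made under p16 control, active when induced, can switch on the red fluorescent protein tdTomato. Labelled as stromal cells, the sample was sorted by flow cytometry into a tdTomato positive fraction (Tom positive) and a tdTomato negative fraction (Tom negative), and each fraction gave 1 single-cell RNA library. Both groups share the genotype and the tumour model, and the number, sex and age of the mice and the inducing agent were not given in the sources used here. With 1 library per group no difference between the sorts was tested, and every 95% interval below holds counting error only.

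Members were chosen by measured values. Among 8134 barcodes with at least 5000 transcript molecules (UMIs), at least 500 genes and at most 10% mitochondrial UMIs, 3022 passed a myeloid gate on Tyrobp and Fcer1g that left out neutrophils, fibroblasts, mast cells and T cells. Each was scored for 5 gene sets, and a member had its highest score, scaled over all 3022, for Cd163, Folr2 and Cbr2. The other sets were B (Nos2, Mmp12, Hmox1), C (Retnla, Ear2), D (Chil3, Cxcl3, Car4) and E (Ccl17, Ccl22, Plet1). There were 566 members among the 21172 deposited barcodes, 294 of 7568 in the Tom positive and 272 of 13604 in the Tom negative library. Levels of these 14 genes in the members follow from the choice and are given as a description.

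Tissue macrophages can settle before birth and renew themselves in place, or arise later from blood monocytes. Macrophages that have lived long in connective tissue often carry scavenger receptors such as CD163, the folate receptor FOLR2 and the mannose receptor, and sit near vessels, where they clear debris, iron and dying cells. The transcription factors PU.1 and MAF are known regulators of macrophage genes, and CCR2 is the chemokine receptor by which monocytes enter tissue.

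The members were sequenced to like depth in both libraries, with a median of 18302.5 UMIs per cell (5348 to 87181) in the Tom positive and 17966.5 (5578 to 68611) in the Tom negative sort, and 6390502 and 5497095 UMIs in all. The libraries shared 3660 barcode sequences. Of the members, 82 Tom positive and 15 Tom negative barcodes also occurred in the other library, where the copies had medians of 601 and 571 UMIs. Scrublet, a doublet caller, marked 2 Tom positive members and no Tom negative one.

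Promoter sequences are shown for 3 of the genes that were higher in the members than in other myeloid cells. They are the chemokines Ccl8 and Pf4 and the scavenger receptor Stab1. Each is the 250 bases before the gene's start in the RefSeq table of GRCm38.p6, printed 5′ to 3′ on the gene's strand. Capitals mark the 6 letters GAGGAA, the core that PU.1 and related ETS factors can bind, or its reverse complement TTCCTC.
Ccl8, chr11:82114935-82115184, plus strand: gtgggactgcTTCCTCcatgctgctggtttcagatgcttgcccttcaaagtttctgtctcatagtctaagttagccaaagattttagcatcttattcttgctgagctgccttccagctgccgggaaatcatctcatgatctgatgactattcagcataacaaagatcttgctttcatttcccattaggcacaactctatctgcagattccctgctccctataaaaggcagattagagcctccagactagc
Pf4, chr5:90772185-90772434, plus strand: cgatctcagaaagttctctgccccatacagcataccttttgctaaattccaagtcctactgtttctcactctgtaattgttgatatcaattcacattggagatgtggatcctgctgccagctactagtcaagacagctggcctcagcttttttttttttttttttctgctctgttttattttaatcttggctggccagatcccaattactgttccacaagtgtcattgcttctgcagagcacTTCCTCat
Stab1, chr14:31168642-31168891, minus strand: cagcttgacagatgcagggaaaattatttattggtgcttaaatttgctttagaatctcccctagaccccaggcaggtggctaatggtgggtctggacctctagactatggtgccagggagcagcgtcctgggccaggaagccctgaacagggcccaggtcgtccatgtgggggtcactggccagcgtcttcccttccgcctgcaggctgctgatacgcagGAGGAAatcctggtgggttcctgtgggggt
Each of these windows held the letters 1 time, and in this the 3 shown do not stand for the rest. The windows of Cd163, Folr2, Ms4a7, Gas6, Stard8, Fcgrt and Npl, also markers or higher genes, lacked them. Of 14 promoters with an entry among Cd163, Folr2, Cbr2, Pf4 and the 12 named higher genes below, 7 held them on either strand, as did 2 of 9 promoters of the named lower genes and 23.3% of all 32851 promoters. The MAF half-site TGCTGAC, or GTCAGCA, was in 1 of the 14, that of Fcna, and in 3.81% of all promoters. A match describes the sequence and shows no binding.

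The 3 rule genes were unevenly spread over the members, and most members were brought in by Folr2. Folr2 (mm10 chromosome 7, 101839988 to 101857194, minus strand), a folate receptor, stood at 240 CPM (UMIs of the gene per 1000000 UMIs) among Tom positive members and 199 CPM among Tom negative ones, and 271 and 235 of them held a UMI (92.2% and 86.4%). Cbr2 (chromosome 11, 120729489 to 120732114), a carbonyl reductase, stood at 79.8 and 96.1 CPM, with a UMI in 45.2% and 46.7%. Cd163 (chromosome 6, 124304656 to 124330527), the receptor for haemoglobin bound to haptoglobin, stood at 127 and 65.5 CPM, with a UMI in 32.0% and 27.2%. Only 55 Tom positive and 40 Tom negative members held all 3 genes, while 145 and 148 held 1 of them. Gated fibroblasts, which should lack Folr2, carried Folr2 in 1.72% (Tom positive) and 2.47% (Tom negative) of barcodes, although they were deeper (medians 40470 and 38388 UMIs).

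Members with more of the rule genes also held more of several resident macrophage transcripts that the rule did not use. Lyve1, a hyaluronan receptor, was at 14.8, 120 and 523 CPM in Tom positive members with 1, 2 and 3 rule genes, and at 5.72, 90.7 and 406 CPM in Tom negative ones. Fcna, a ficolin that binds microbial sugars, was at 98.7, 176 and 304 CPM and at 35.9, 79.9 and 142 CPM. Gas6, the bridge between dying cells and the MERTK receptor, was at 85.4, 157 and 406 CPM and at 60.4, 147 and 230 CPM. In each sort all 3 genes were ordered the same way over the 3 steps. Pf4 was not, with 4632, 5240 and 3770 CPM in the Tom positive and 3138, 4147 and 3103 CPM in the Tom negative sort.

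**Figure D1:**
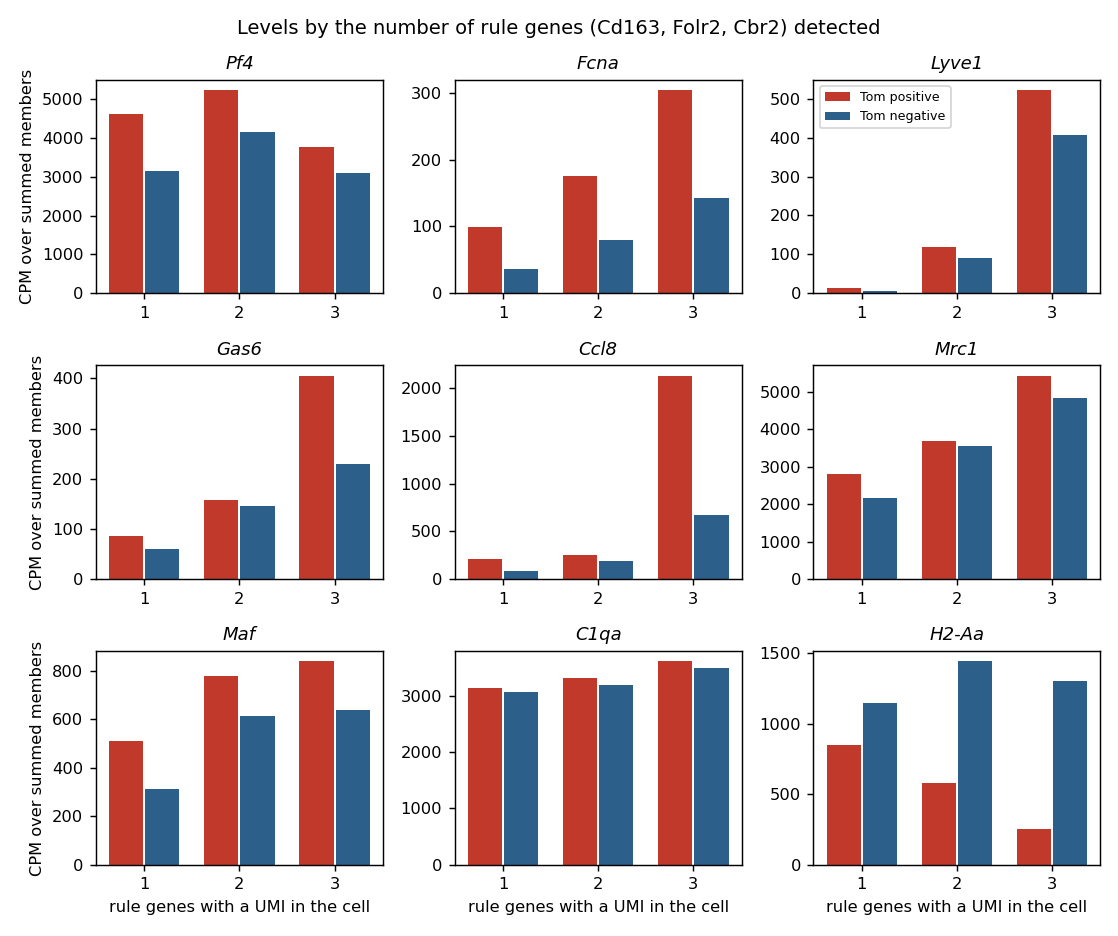
Summed level (CPM, linear axes from 0) of 9 genes in members grouped by how many of Cd163, Folr2 and Cbr2 had a UMI in the cell (horizontal axis), in the Tom positive (red; 145, 94 and 55 cells) and Tom negative (blue; 148, 84 and 40 cells) sorts. Lyve1, Fcna, Gas6 and Mrc1 were higher with each added rule gene in both sorts, and H2-Aa was lower with each added gene in the Tom positive sort (850, 584 and 257 CPM) but not in the Tom negative one (1147, 1444 and 1303 CPM).

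The 13 Tom positive and 16 Tom negative members whose score was less than 0.1 above the next set held Folr2 at 114 and 66.4 CPM and Fcna at 79.0 and 22.1 CPM. Just outside, within 0.1 below, lay 110 and 135 cells, with Folr2 at 20.4 and 5.40 CPM and Fcna at 18.6 and 14.7 CPM. Of these, 98 and 118 were assigned to set E.

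Members made up 23.4% (95% interval 21.1 to 25.9) of Tom positive and 15.4% (13.7 to 17.2) of Tom negative myeloid barcodes, a ratio of 1.52 (1.29 to 1.80). The ratio was 0.984 when scores were scaled within each library, where 109 of 389 Tom negative members held no UMI of Cd163, Folr2 or Cbr2, and 1.28 with a mitochondrial limit of 5%. Counts of the rule genes themselves, which are no independent support, are given as a description. At least 1 of them had a UMI in 31.4% and 25.6% of myeloid barcodes (ratio 1.23, 1.07 to 1.41), at least 2 in 12.6% and 7.92% (1.59, 1.26 to 2.01) and all 3 in 4.38% and 2.26% (1.94, 1.27 to 2.99). After each cell was thinned to 5000 UMIs the ratios were 1.26 (1.06 to 1.51), 1.55 (1.13 to 2.12) and 1.47 (0.784 to 2.77). The matching ratios for sets B, C, D and E were 1.03, 0.50, 1.32 and 0.696, and since the shares of the 5 sets add up, none stands alone.

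Against the other myeloid cells the members were high in many resident macrophage genes, in complement C1q and in chemokines that draw monocytes. They were low in Egln3 (high mainly in sets B and D), in 3 of 4 neutrophil markers and in Spp1, which encodes osteopontin. Genes were called when at least 2-fold apart in the same direction in both libraries, on log2 of CPM plus 1. Of 8127 genes, 167 were higher (2.05%) and 166 lower (2.04%), and with TMM scaling factors 122 and 212. The cells were chosen from the same data, so these are descriptions of the members and not tests.

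Ccl8, a chemokine, was at 541 CPM in Tom positive members against 11.8 CPM in the other myeloid cells of that library. In the Tom negative library Ccl8 was at 197 against 8.65 CPM. Lyve1 was at 134 against 9.42 CPM and at 86.6 against 1.17 CPM. Fcna was at 158 against 11.2 CPM and at 63.5 against 12.6 CPM. Ms4a7, a membrane protein of macrophages and microglia, was at 349 against 56.2 CPM and at 314 against 45.5 CPM. Gas6 (162 against 19.8 CPM, and 109 against 17.4 CPM) and Selenop, a selenium carrier protein (871 against 141 CPM, and 705 against 126 CPM), had the same order. So did Stab1 (427 against 84.5, and 285 against 59.8 CPM), Vcam1, an adhesion molecule, Fcgrt, the chain of the neonatal Fc receptor, Npl, Stard8 and Fcrls, all at log2 differences between 2.23 and 3.30 in each library. The 12 were picked for being higher in both libraries. Lymphatic endothelium also makes Lyve1, and its defining transcripts Reln (18.0 and 0.364 CPM) and Mmrn1 (11.4 and 0.182 CPM) were present in Tom positive members. Lyve1 was at 133 and 87.0 CPM without the 8 members at 1000 CPM or more of endothelial markers, Reln and Mmrn1 among these. The part of lymphatic cells in the Lyve1 level was otherwise not tested.

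**Figure D2:**
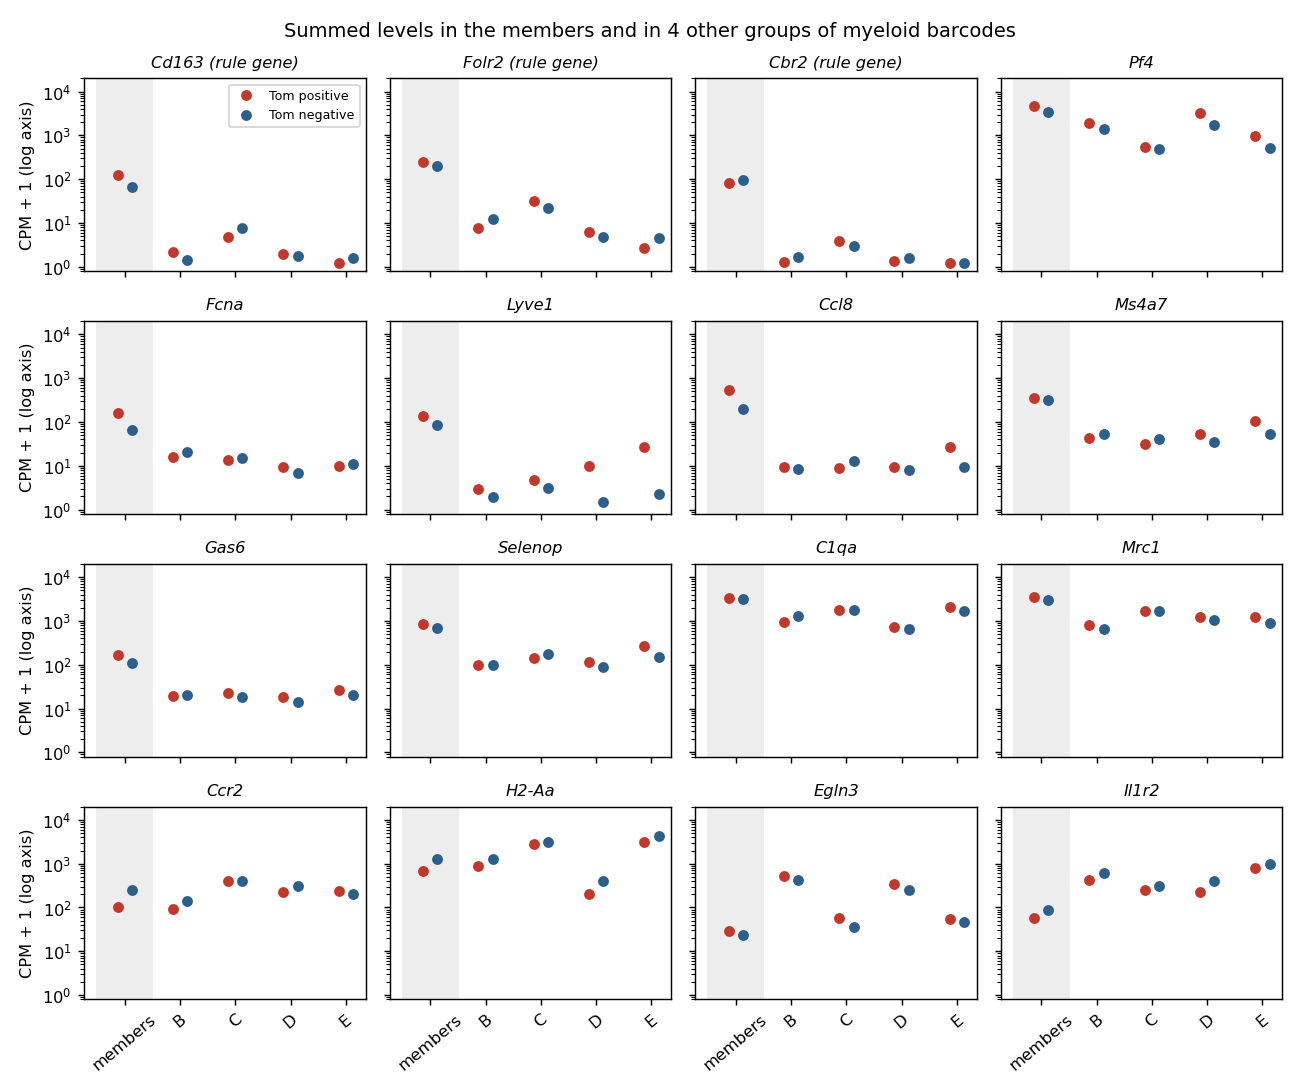
Summed level (CPM plus 1, log axis) of 16 genes in the members (shaded) and in the myeloid cells of sets B, C, D and E, in the Tom positive (red) and Tom negative (blue) libraries, 1 point per library and group. Cd163, Folr2 and Cbr2 were used to choose the members; Fcna, Ms4a7, Gas6 and Selenop were at least 63.5, 314, 109 and 705 CPM in members of either library and lower in all 4 other groups.

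Of 23 measured resident macrophage genes outside the rule, 13 were higher in the members and none lower, with median log2 differences of 1.27 in the Tom positive and 1.26 in the Tom negative library, against 0.11 and 0.12 over all genes. Mrc1, the mannose receptor (3529 and 2931 CPM), Maf (652 and 446 CPM), Clec10a, Igf1 and Rnase4 were among the 13. Of 13 measured scavenger and endocytic receptor genes, only 3 were higher (Mrc1, Stab1 and Clec10a) and 1 was lower (Olr1). The median log2 differences of that list were 0.52 and 0.28. Timd4, a receptor for dying cells that marks some of the longest-lived macrophages, was nearly missing, with 9 UMIs in 294 and 1 UMI in 272 cells. Of 12 core macrophage genes, 4 were higher: Adgre1, which encodes the F4/80 antigen (324 and 277 CPM), and C1qa, C1qb and C1qc. The cells thus carried macrophage and several resident markers, but Ccr2, which is typical of recent monocytes, was found in 106 Tom positive (36.1%) and 174 Tom negative (64.0%) members, so the population is named by its genes here.

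Among 12 measured complement genes, 4 were higher, the 3 C1q chains and C4b. C1qa, a chain of the first complement component, stood at 3270 CPM in the Tom positive members, and at 3157 CPM in the other sort. Among 18 chemokines, 5 were higher: Ccl2, Ccl7 and Ccl12, ligands for monocyte receptors, Ccl8, and Pf4, a platelet-type chemokine. Pf4 stood at 4685 and 3422 CPM, with a per-cell median of 2882 and 1870 CPM. Among 17 lipid-handling genes, 4 were higher (Apoe, Ch25h, Nr1h3 and Pltp) and 2 lower (Spp1 and Cd9). Apoe, the lipoprotein of cholesterol transport, stood at 7418 and 6150 CPM, with log2 differences of 1.38 and 1.42. Of 15 genes on the haem and iron list, 3 were higher: Slc40a1, the iron exporter ferroportin, Cp, the copper oxidase ceruloplasmin, and Hpgds. Hpgds encodes a prostaglandin D synthase and is not itself a gene of haem or iron handling. Of 27 transcription factor genes 3 were higher (Maf, Klf2 and Nr1h3) and none lower.

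On the lower side, Egln3, an oxygen-sensing hydroxylase that is induced by low oxygen, was at 27.7 CPM in Tom positive members against 299 CPM in the other myeloid cells, and at 23.1 against 195 CPM in the Tom negative library. Il1r2, the decoy receptor for interleukin-1, was at 57.6 against 406 CPM and at 85.5 against 572 CPM. Cd24a, Il7r, the heat shock gene Hspa1b, the cadherin gene Cdh1, the activin chain Inhba, Tnfrsf9, the protease Napsa, Fgf13, the vessel growth factor Pgf and Tnip3 completed the 12 named genes, at log2 differences between -3.47 and -2.26. Egln3 was high mainly in sets B (513 and 418 CPM, Tom positive and Tom negative) and D (345 and 255 CPM). In sets C (55.7 and 34.5 CPM) and E (53.8 and 45.8 CPM) it was nearer the members. Inhba was at 11.0 and 16.4 CPM in members and 11.8 and 15.8 CPM in set C. Hspa1b was at 10.2 and 15.3 CPM in members and 8.09 and 17.6 CPM in set C. Of 4 measured neutrophil markers 3 were lower (S100a8, Mmp8 and Il1r2), and the rule's gate itself removed cells high in S100a8. Of 17 inflammatory factors 3 were lower (Il1b, Clec4e and Trem1), and of 8 MHC class II genes 2 were (H2-Ab1 and H2-DMb2), with a median of -1.04 and -1.07 over the 8.

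The members fell into 6 clusters, each with cells of both sorts in like shares. Clusters were made without correction between libraries, and their leading genes are descriptions. Cluster 1 (88 Tom positive and 84 Tom negative cells) was led by Chil3, Pde10a and Tnfrsf9 and held the most Spp1 (2993 CPM), which was low in the members as a whole, and the most Arg1 (3390 CPM), which encodes arginase. Its Chil3 rested mostly on 1 Tom positive cell with 876 UMIs. Among Tom negative cells Chil3 was at 46.6 CPM in cluster 1, against 109 CPM in cluster 5 and 92.7 CPM in cluster 6. Cluster 2 (67 and 72 cells) was led by Mamdc2, Cd209g, Retnla and Cd209f, C-type lectin and type 2 response genes among them, and held the most Lyve1 (546 CPM), Cd163 (376 CPM), Cbr2 (320 CPM) and Folr2 (417 CPM). It also held the most Ccr2 (436 CPM) and Cd74 (5094 CPM), the MHC class II invariant chain. Cluster 3 (48 and 35 cells), led by Adamdec1, Ifitm1 and the collagenase Mmp13, held almost no Ccr2 (4.49 CPM). Cluster 5 (34 and 29 cells) was led by Vcam1 and had the highest Maf (1168 CPM), and cluster 6 (17 and 14 cells) was led by the complement gene C9 and by Casr.

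Cluster 4 (40 and 38 cells) was mixed and deep, with a median of 37009 UMIs. It held 41 of the 43 members with at least 200 CPM of the cell division genes Mki67 and Top2a together, and these made up 7.82% (5.02 to 11.5) of Tom positive and 7.35% (4.55 to 11.1) of Tom negative members. It also held all 8 members with at least 1000 CPM of endothelial markers and all 8 with at least 1000 CPM of the protease gene Ctsk. Its levels of Cd163 (9.83 CPM) and H2-Aa (214 CPM) were the lowest of the 6 clusters.

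**Figure D3:**
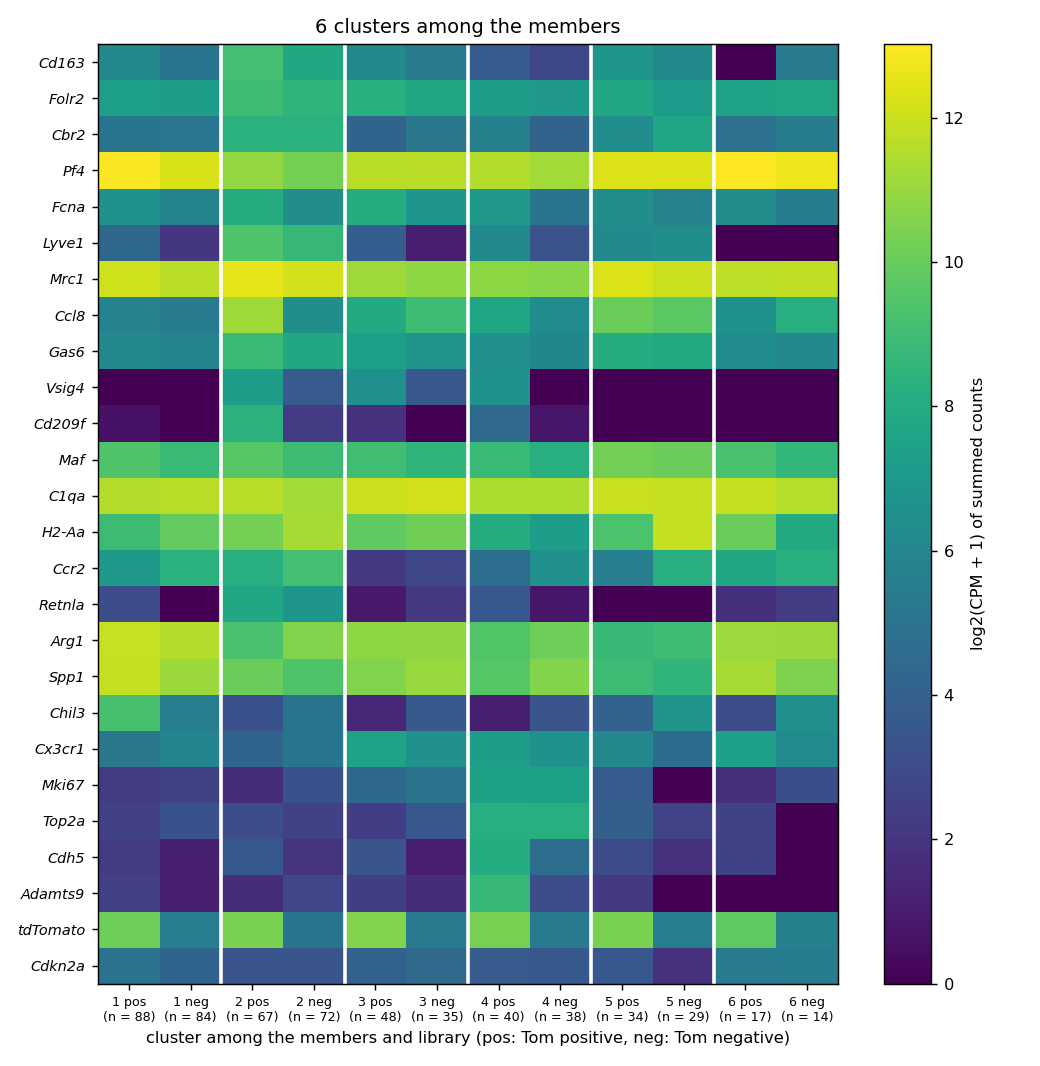
Log2 of CPM plus 1 (colour) of 26 genes in each of the 6 clusters among the members, split by library (columns; number of cells under each). Lyve1, Cd163, Cd209f and Retnla were concentrated in cluster 2, Mki67, Top2a, Cdh5 and Adamts9 in cluster 4, and the rows of tdTomato alternate between the sorts in every cluster.

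Between the sorts, genes were called when at least 1.5-fold apart among 8571 genes at 10 CPM or more in members of either library. In Tom positive members 399 genes were higher (4.66%) and 149 lower (1.74%), around a median log2 difference of 0.01 over all genes. In the other myeloid cells, which come from the same 2 libraries, 1.82% of 8078 genes were higher and 1.16% lower. The calls on the higher side rested on few cells. Of the 399, 182 (45.6%) had at least 50% of their Tom positive UMIs in 5 cells, against 12 of the 149 lower genes (8.05%) for their Tom negative UMIs.

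Several of the highest differences came from 6 Tom positive and 2 Tom negative members with at least 1000 CPM of endothelial markers. These cells held the endothelial cadherin gene Cdh5 at 1305 CPM and the myeloid gate gene Tyrobp at 381 CPM, and Scrublet marked 2 of them. Over all Tom positive members the summed level of 10 blood endothelium markers was 358 CPM against 91.5 CPM in Tom negative members, and 9 of the 10 were higher. Without the 8 cells, 217 genes were higher, of which 192 were among the 399, and 164 were lower, of which 129 were among the 149. Adamts9, a protease gene, was at 107 and 3.64 CPM with all members and at 2.80 and 2.19 CPM without the 8 cells. Fabp4, a fatty acid carrier of capillary endothelium, was at 21.9 and 13.5 CPM without them, a log2 difference of 0.66 against 3.73 with them. Cdh5 (log2 difference 3.20 with and 1.58 without), Ptprm (2.89 and 1.19), Ldb2 (2.88 and 0.66), Col4a2 (2.27 and 0.23), Col4a1 (1.86 and 0.31) and Plcb4 (2.27 and -0.12) followed the same pattern. Chil3, a gene of rule set D, had 876 of its 1078 Tom positive UMIs in 1 cell.

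**Figure D4:**
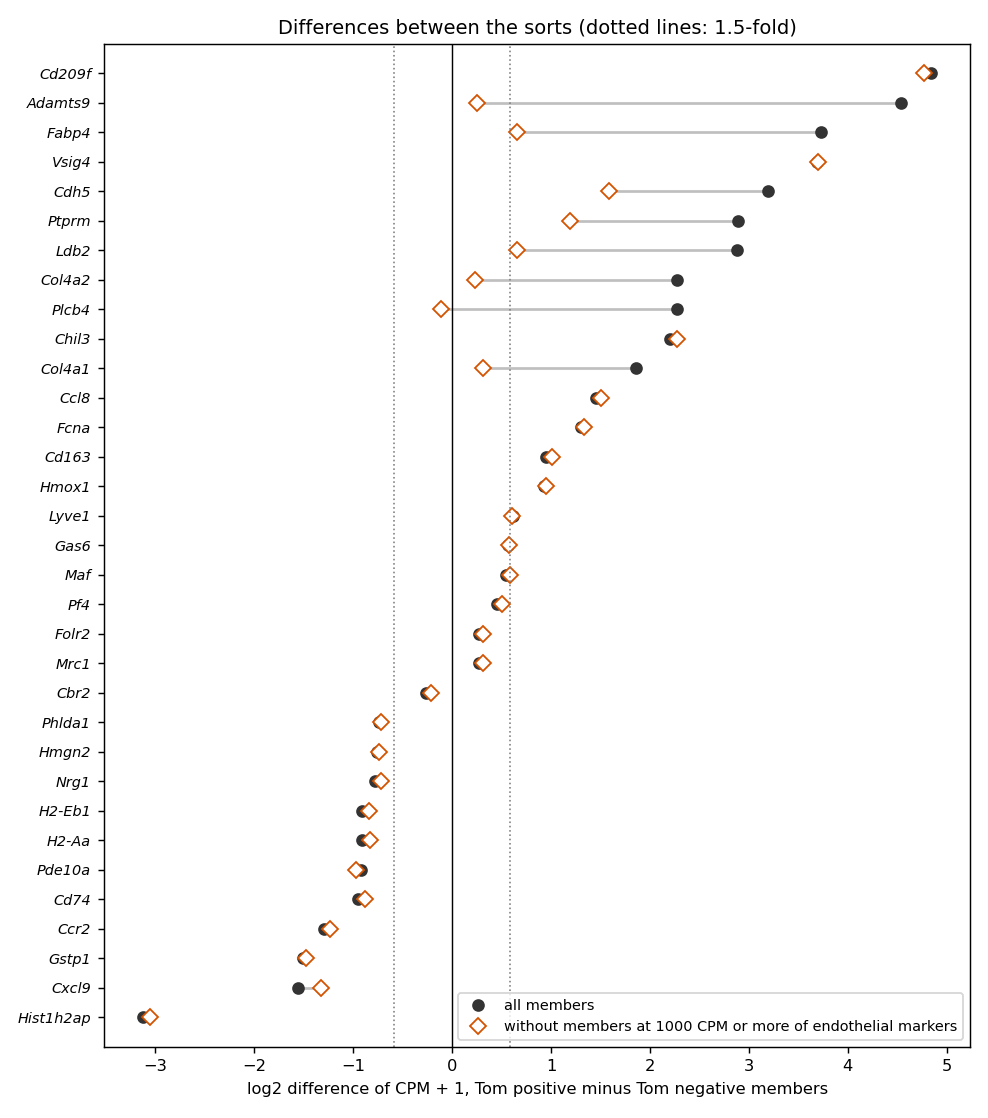
Difference between the sorts (log2 of CPM plus 1; positive values are higher in Tom positive members) for 33 genes with all members (filled circles) and without the 8 members at 1000 CPM or more of endothelial markers (open diamonds); dotted lines mark 1.5-fold. Adamts9, Fabp4, Cdh5, Ptprm, Ldb2, Col4a2, Plcb4 and Col4a1 moved towards 0, while Cd209f, Vsig4, Fcna and Cd163 on the higher and Ccr2, H2-Aa and Cd74 on the lower side moved little.

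Several resident macrophage transcripts were higher in the Tom positive members. Of 27 measured resident genes outside the rule 9 were higher and none lower, beside 4.66% higher and 1.74% lower over all genes. Among the 9, Cd209f, Cd209g, Cd209d and Vsig4 reached 10 CPM only in Tom positive members, so they could not have been called lower. The median log2 difference of the list was 0.45, the same with Cd209g at its bound. The other myeloid cells had a median of 0.18 for this list. Fcna was at 158 CPM (148 to 168) against 63.5 CPM (57.0 to 70.5), a ratio of 2.49 (2.20 to 2.82), with a UMI in 181 of 294 and 114 of 272 cells, against 0.858% and 0.669% of fibroblasts. Its log2 difference was 1.30 with all members and 1.34 without the endothelial-high ones. Cd163, itself a rule gene, was at 127 (118 to 136) against 65.5 CPM (58.9 to 72.6), a ratio of 1.94, but the log2 difference of 0.95 was 0.33 where mitochondrial UMIs were held to 5%. Cd36, a scavenger receptor for lipids (326 against 171 CPM), Igf1, a growth factor (101 against 51.3 CPM), and Colec12, a scavenger receptor (39.9 against 13.6 CPM), were higher too, but for Colec12 54.9% of the Tom positive UMIs lay in 5 cells, and a UMI was found in 20.1% and 17.3% of members. So were genes outside that list: Ch25h, which makes the oxysterol 25-hydroxycholesterol (76.4 against 29.7 CPM), Slc40a1 (51.2 against 20.9 CPM) and C4b (89.5 against 40.9 CPM). Fibroblasts in these libraries held a UMI of Igf1 in 90.2% and 85.5% of cells and of C4b in 84.6% and 84.5%, and summed fibroblast markers in members were 1498 and 1800 CPM; the part of free fibroblast RNA in these levels was not tested.

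Other resident genes were high in few cells. Vsig4, a receptor for complement C3 fragments, was at 63.4 against 4.00 CPM, with a UMI in 31 and 4 members. The C-type lectin gene Cd209f was at 53.8 against 0.910 CPM, with a UMI in 23 and 3 members, and its relative Cd209g was found in 17 Tom positive and 0 of 272 Tom negative members, which, taking 3 counts as the floor, allows a UMI in up to 1.10% of cells and sets no limit on cells that express it. Cd209g was at least 35.6-fold higher, against a floor of 3 counts over the Tom negative members. For Cd209f 85.8% and for Vsig4 53.8% of Tom positive UMIs lay in 5 cells. Ccl8, at 541 against 197 CPM, had 57.2% of its Tom positive UMIs in 5 cells, and the log2 difference of 1.45 was -0.089 where mitochondrial UMIs were held to 5%. Within cluster 2 Ccl8 was at 2265 against 89.6 CPM, whereas in cluster 3 the order was turned, with 244 against 498 CPM. Fibroblasts also held Ccl8, in 66.0% and 60.3% of cells.

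Lower in the Tom positive members were some monocyte and MHC class II transcripts, with Ccr2, H2-Aa and Cd74 spread over many cells. Ccr2 was at 104 CPM (95.8 to 112) against 256 CPM (243 to 270), 2.47-fold lower (2.25 to 2.72), with a UMI in 106 of 294 and 174 of 272 members. After thinning to 5000 UMIs the shares were 25.9% and 51.8%, and in gated fibroblasts 0.400% and 0.800%. In the other myeloid cells Ccr2 was at 210 and 259 CPM, which is under 1.5-fold. Of 7 measured monocyte markers 3 were lower and none higher, beside 1.74% lower and 4.66% higher over all genes. The 3 were Ccr2, Plac8 (21.1 against 55.5 CPM) and Hp, which encodes haptoglobin (8.29 against 19.3 CPM). The median of the list was -0.47 against -0.26 in the other myeloid cells. Hp reached 10 CPM only in Tom negative members, so it could not have been called higher. It had a UMI in only 14.6% and 17.3% of members, and 35.8% of its Tom negative UMIs lay in 5 cells. Plac8 had a UMI in 94.6% and 96.0% of fibroblasts, and the part of free RNA in its level was not tested.

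Of 7 measured MHC class II genes, which present peptides to helper T cells, 3 were lower and none higher, with a median of -0.53. H2-Aa was at 665 against 1254 CPM, H2-Eb1 at 429 against 808 CPM and Cd74 at 1896 against 3664 CPM. In the other myeloid cells the median was -0.55 and Cd74 stood at 3912 against 6341 CPM, so the order of the sorts was alike there. Gated fibroblasts, which should lack these genes, held a UMI of H2-Aa in 18.5% of cells in the Tom positive library and 60.9% in the Tom negative one, at 5.07 and 26.3 CPM; the part of free RNA in the difference between members was not tested. By cluster, H2-Aa was lower in the Tom positive cells of clusters 1, 2, 3 and 5, but higher in cluster 4 (269 against 148 CPM) and in cluster 6 (1050 against 247 CPM in 17 and 14 cells). Among 17 inflammatory factors, Il1b (320 against 523 CPM), Ptgs2, the prostaglandin synthase COX-2 (34.6 against 73.3 CPM), and Clec4e were lower and Il6 was higher. Nrg1, a ligand of ERBB receptors, stood at 541 against 929 CPM, and Cxcl9 at 18.9 against 57.8 CPM in only 9 and 14 cells. Hmgn2, Phlda1 and Pde10a were the other named genes on this side.

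Hist1h2ap and Gstp1 had some of the lowest values in Tom positive members. They were also lower in the other Tom positive myeloid cells and in Tom positive gated fibroblasts. Hist1h2ap, a histone gene, was at 23.3 against 211 CPM in members and at 20.4 against 102 CPM in the other myeloid cells, and Gstp1, a detoxifying enzyme, at 19.2 against 56.4 CPM and at 20.3 against 46.9 CPM. In gated fibroblasts Hist1h2ap was at 15.2 against 83.1 CPM and Gstp1 at 41.0 against 96.8 CPM, so the order was not particular to myeloid cells. Both genes share sequence with close copies, which leaves their counts uncertain. Among 18 cell division genes 1 was lower, Pclaf, and none higher, with a median of -0.15.

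Reporter transcript was at a high level in 74.8% of Tom positive members, beside 74.7% of the other myeloid cells of that sort. tdTomato stood at 1275 CPM in the Tom positive members and at 41.1 CPM in the Tom negative ones, a ratio of 31.0 (27.2 to 35.6), and at 980 against 45.4 CPM in the other myeloid cells. At 500 CPM or more were 220 of 294 Tom positive members (74.8%, 69.5 to 79.7) and 0 of 272 Tom negative members, where the exact interval reaches 1.35%. Of the other Tom negative myeloid cells 0.268% reached it. Of the Tom positive members 18 held no tdTomato UMI and 70 lay between 250 and 1000 CPM. At least 1 tdTomato UMI was present in 93.9% and 44.9% of members, and in 85.0% and 16.5% after thinning to 5000 UMIs. Barcodes gated as carcinoma-like by Krt8, Krt18 and Krt19 held one in 20 of 21 Tom positive cells (95.2%, or 42.9% thinned). In the Tom negative library 3 of 20 did, and the medians were 70613 and 38229 UMIs. Whether these barcodes came from the graft was not tested. The unthinned Tom positive share of members is thus at the level of the carcinoma-gated barcodes, while the thinned share is above theirs.

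Cdkn2a (mm10 chromosome 4, 89274471 to 89294653, minus strand), the gene of p16, had a smaller ratio between the sorts in the members than in the other groups of myeloid cells, and that difference was not tested. Members held it at 19.2 CPM (Tom positive) and 15.3 CPM (Tom negative), a ratio of 1.26 (0.947 to 1.68), on 123 and 84 UMIs. In the other myeloid cells the levels were 58.8 and 25.1 CPM, a ratio of 2.34 (2.15 to 2.55). The ratios were 2.43 (2.14 to 2.77) in set B, 1.91 (1.43 to 2.56) in C, 1.90 (1.62 to 2.23) in D and 1.80 (1.41 to 2.30) in E. The intervals of sets C, D and E overlapped that of the members. Members with a Cdkn2a UMI made up 25.5% and 21.0%, against 46.0% and 28.4% of the other myeloid cells. Thinned to 5000 UMIs, the members' shares were 7.48% and 5.88%, against 20.5% and 11.2% of the other myeloid cells. Gated fibroblasts, thinned, were near the members at 7.0% and 6.9%. Among 21 and 20 carcinoma-gated cells, unthinned, none held a Cdkn2a UMI. The log2 difference in members, 0.31, was 0.64 in members with UMIs of at least 2 rule genes and 0.60 where mitochondrial UMIs were held to 5%, both past 1.5-fold. Of 13 genes listed for cell cycle arrest and senescence none was higher, and Lmnb1, which encodes lamin B1, was lower (82.5 against 132 CPM). Over all genes 4.66% were higher and 1.74% lower. Counts over 13 genes are near those shares and say little about senescence.

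**Figure D5:**
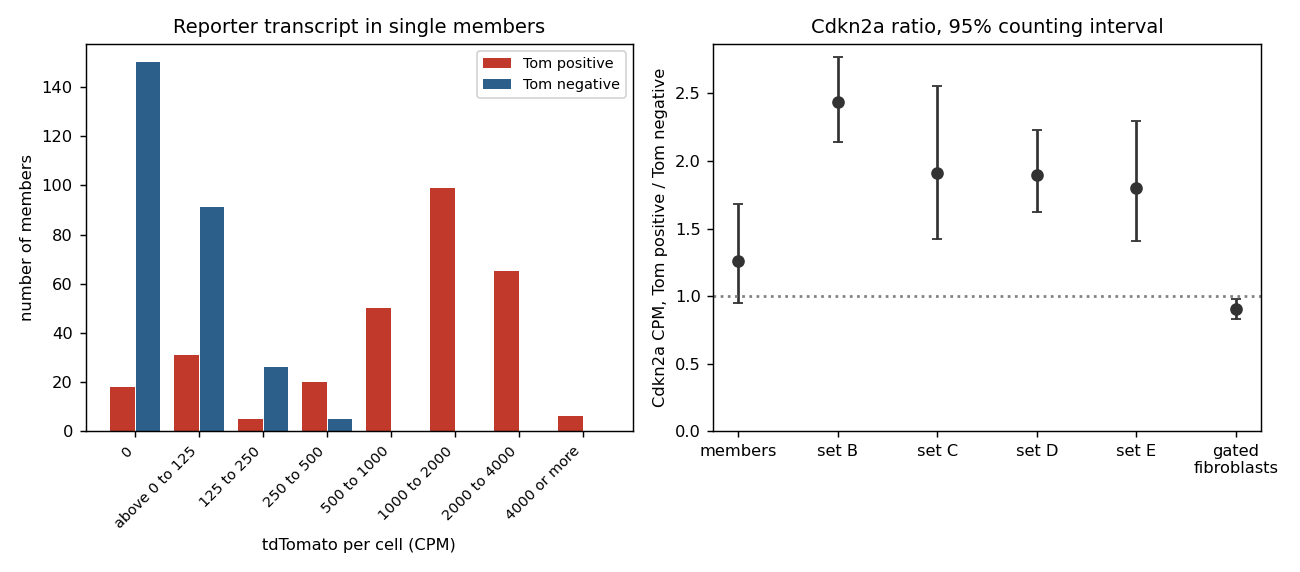
Left, number of members by tdTomato per cell (CPM) in the Tom positive (red) and Tom negative (blue) sorts; right, ratio of Cdkn2a CPM between the sorts in the members, the other myeloid sets and gated fibroblasts, with exact 95% counting intervals and a dotted line at 1. No Tom negative member reached 500 CPM of tdTomato, and the Cdkn2a ratio of the members (1.26) was below those of sets B to E (1.80 to 2.43).

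Within the Tom positive sort, the 220 members at 500 CPM of tdTomato or more were set beside the 74 below it. Cd163 was at 132 and 113 CPM, Fcna at 154 and 169 CPM and Ccr2 at 98.8 and 118 CPM, so these genes did not follow the reporter level beyond 1.5-fold. H2-Aa was at 564 CPM in the reporter-high and 976 CPM in the reporter-low members, between that and the 1254 CPM of the Tom negative sort. Ccl8 was at 638 and 245 CPM and Cd36 at 287 and 445 CPM.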

How the data were processed

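Single-cell RNA was measured in 2 libraries, 1 of Tom positive and 1 of Tom negative stromal cells. The deposited files hold raw UMI counts per gene and barcode (31054 features); Cell Ranger 7.0.1 and mm10 are named in the submitters' processing notes, and the sources used here name no cell caller. The deposited libraries held 128275546 and 164646314 UMIs, and the lowest barcode had 500. Counts of members were summed per library and scaled to CPM. The pseudocount was 1 CPM. Exact 95% intervals were used, Poisson for CPM, binomial (Clopper-Pearson) for shares and conditional for ratios; PCR copies are collapsed by UMIs. Members, gene lists (31) and limits were chosen with earlier results of these data known. Barcodes were scored as the mean log of counts per 10000, scaled over myeloid cells. Named genes are the 12 highest and 12 lowest differences at 50 CPM or more, without mitochondrial, ribosomal protein, haemoglobin or predicted genes and, on the higher side against other myeloid cells, without genes below 1/5 of their level in other gated classes, plus the rule genes, the markers and up to 8 genes of a list; Cd209g and the subgroups by Ctsk and endothelial markers were singled out after their values were seen, and 1 named gene is not reported here. Clusters used 2000 variable genes, 30 components, 15 neighbours and Leiden at resolution 0.5 in scanpy 1.11.5. Doublets called by Scrublet were kept, and leaving them out was an alternative. Thinning drew 5000 UMIs per cell and left out no member. Gene coordinates are from GENCODE M21 (GRCm38). The calculation of folds and intervals was tested on simulated counts. Other alternatives were TMM factors (edgeR 4.0.16), other limits, pseudocounts and filters. No count model was fitted, as there was 1 library per group. Counts come from transcript ends, so levels of different genes were not ranked.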

Additional observations from a re-analysis of the deposited data

Results flagged for a closer look

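Among 299 genes of the lists and named genes at 10 CPM or more in both populations, 2 were past 1.5-fold in opposite directions in the members and in the other myeloid cells; the difference was not tested. Ctsk was higher in Tom positive members (log2 difference 0.97, 422 against 216 CPM) and lower in the other myeloid cells (-2.21, 31.6 against 150 CPM). The 8 members with at least 1000 CPM of Ctsk, 5 Tom positive and 3 Tom negative, held 96.3% of its Tom positive and 87.8% of its Tom negative UMIs, and outside them the order was turned, with 16.3 against 27.0 CPM. Fscn1, an actin-bundling gene of mature dendritic cells, was higher in Tom positive members (log2 difference 1.02, 10.6 against 4.73 CPM) and lower in the other myeloid cells (-1.71, 5.19 against 19.2 CPM). Fscn1 reached 10 CPM only in the Tom positive members and only in the Tom negative other myeloid cells. A call could therefore go only in these directions.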

How the results depend on the processing

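The 24 genes named for members against other myeloid cells kept their direction and stayed past 2-fold under each alternative run. Of 28 genes past 1.5-fold between the sorts, 22 stayed past it at 5% mitochondrial UMIs, 23 without barcodes present in both libraries, 24 without endothelial-high members, 25 with at least 2 rule genes and 26 to 28 under the others. The ratio of member shares (1.52) was 0.984 with scores scaled within each library and 1.28 with a mitochondrial limit of 5%. The reporter-high share (74.8%) was 81.6% at 250 CPM and 57.8% at 1000 CPM. The tdTomato log2 difference (4.92) was 5.29 with reporter-high Tom positive members only and 4.65 with a pseudocount of 10 CPM. The 399 genes higher in Tom positive members became 696 with at least 2 rule genes, 217 without endothelial-high members, 682 with thinned cells, 224 with a pseudocount of 10 CPM, 73 at 50 CPM or more and 1584 with no filter. The 149 lower genes became 228 with a score margin of 0.5, 263 with at least 2 rule genes, 244 with scores scaled within each library, 342 at 5% mitochondrial UMIs, 273 without barcodes present in both libraries, 490 with thinned cells, 53 with the larger pseudocount, 35 at 50 CPM and 651 with no filter. The 167 genes higher in members than in others became 97 with that pseudocount and 91 at 50 CPM, and the 166 lower genes 95, 87 and, with no filter, 265. Among single genes past 1.5-fold, the sign turned for Ccl8 (-0.089 at 5% mitochondrial UMIs), Plcb4 (-0.12 without endothelial-high members), and Col4a2 (-0.068) and Col4a1 (-0.083) without barcodes present in both libraries. The difference of Cbr2, under 1.5-fold (-0.26), was 0.37 with scores scaled within each library and 0.037 without those barcodes. Leaving out endothelial-high members or shared barcodes was chosen after seeing the data. Filters and thinning change how many genes are tested or how many UMIs are counted; for the other changes the cause was not tested. Variation between mice or libraries could not be measured, and genes at a few UMIs are limited by depth. No paired analysis was possible because each group has 1 library and the labels carry no replicate numbers.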

Other observations

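Of the members, 8 held high levels of Ctsk. These 8 cells, 5 Tom positive and 3 Tom negative, were picked after their values were seen, by at least 1000 CPM of Ctsk, the collagen-cleaving cathepsin K. Summed, they held Ctsk at 9641 CPM, Acp5, the tartrate-resistant acid phosphatase, at 6647 CPM, the gelatinase Mmp9 at 6838 CPM, Atp6v0d2, a subunit of the proton pump, at 940 CPM and Nfatc1, a transcription factor of osteoclasts, at 866 CPM. The macrophage gene Adgre1 stood at 29.1 CPM and Folr2 at 39.7 CPM. All 8 lay in cluster 4, their median depth was 45084.5 UMIs, and Scrublet marked none. No markers for such cells had been fixed, so they were given no type name.

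Cells with a UMI of Cd209f, 23 in the Tom positive and 3 in the Tom negative sort, lay mostly in cluster 2 (20 of 26). The Tom positive ones held Cd163 at 913 CPM, Lyve1 at 1023 CPM, Ccl8 at 5188 CPM and Folr2 at 632 CPM, with Ccr2 at 5.22 CPM, whereas all Tom positive cells of cluster 2 held Ccr2 at 295 CPM. One of them was also among the endothelial-high members, and Scrublet marked 1. Of the 35 members with a UMI of Vsig4, 8 were among these 26.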
